A study of Homo sapiens with 6 samples.

Results

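De novo lipogenesis turns cytosolic acetyl-CoA into palmitate, and 7 of the 35430 genes in the deposited table, chosen by symbol, encode its acetyl-CoA supply, carboxylation, synthase and NADPH steps: ACLY, ACSS2, ACSS1, ACACA, ACACB, FASN and ME1. All 7 were found and all 7 passed the filter on low counts. Their RNA was measured in LNCaP, an established androgen-responsive human prostate cancer line, as 3 libraries of cells given 0.5 µM palbociclib for 1 week and 3 libraries of control cells. Palbociclib inhibits the kinases CDK4 and CDK6, whose activity carries cells out of G1. Both groups are the same line with no other stated agent or allele. No dose, vehicle or culture time is given for the controls, so the drug and time in culture cannot be told apart.

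ATP citrate lyase, made by ACLY, splits citrate exported from mitochondria into acetyl-CoA and oxaloacetate, while acetyl-CoA synthetases make the same product from acetate. Acetyl-CoA carboxylase adds carbon dioxide to give malonyl-CoA, which fatty acid synthase condenses with further acetyl-CoA into palmitate at the cost of NADPH. Prostate cancers are known for high expression of this route, and androgen and the sterol regulatory element-binding proteins (SREBPs) are known inducers of its genes.

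Genes of the cytosolic steps from citrate and acetate to palmitate, FASN, ACLY, ACACA and ACSS2, rose with palbociclib. FASN was 1.96-fold, ACLY 1.67-fold, ACACA 1.36-fold and ACSS2 1.29-fold higher in palbociclib than in control libraries. ACACB, the carboxylase of the mitochondrial surface, fell 1.62-fold, and ME1, a cytosolic source of NADPH, fell 1.27-fold. ACSS1, the mitochondrial acetyl-CoA synthetase, had few counts and did not pass. Calls are by edgeR's quasi-likelihood test at an adjusted p below 0.05. Of the 7 genes, 4 were called higher, where 20.1% of the 21218 tested genes were, and 2 lower, where 18.5% of tested genes were; 38.6% were called in either direction. The groups did not overlap for 6 of the 7, as for 51.1% of tested genes. With library size alone in place of TMM, higher calls were 36.1% of all calls, against 52.1%, and the median log2 fold change of all genes moved by -0.11; the 4 and 2 calls among the 7 held.

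**Figure D1:**
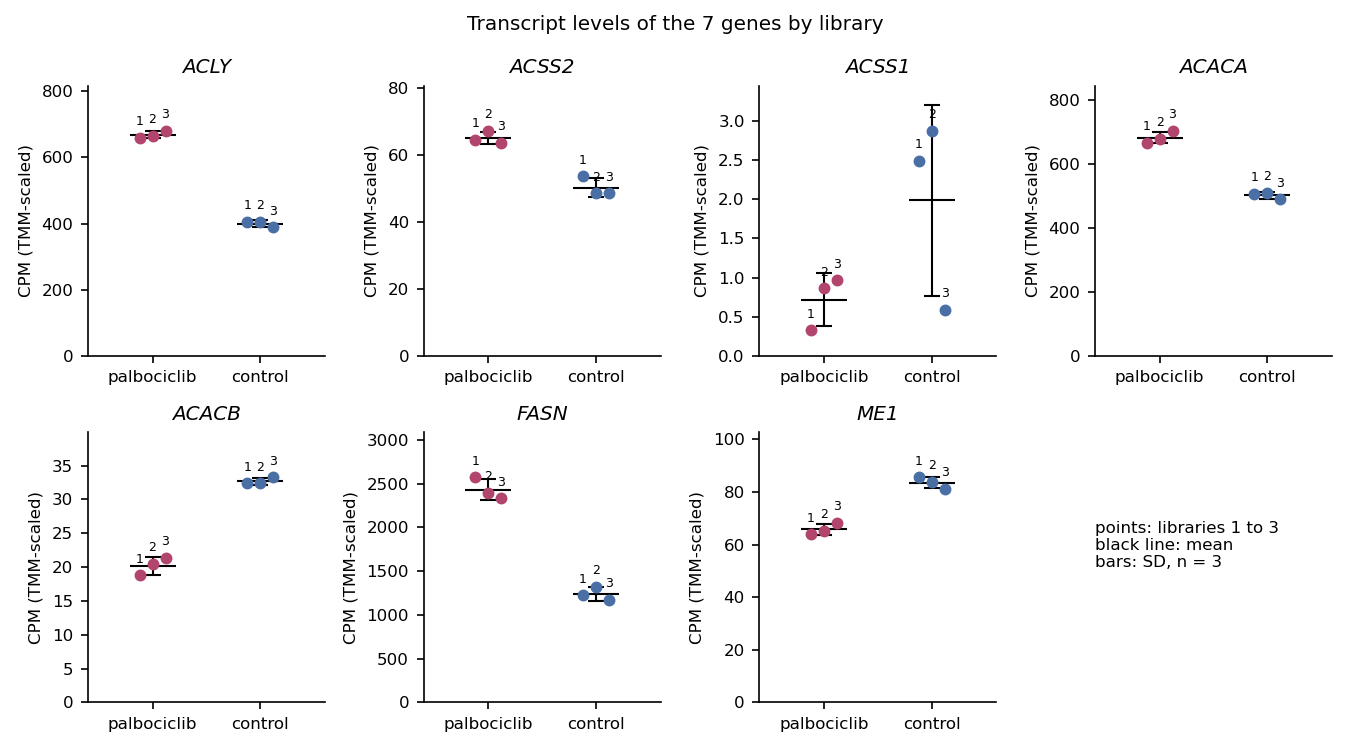
Level of each gene in every library, in CPM (estimated counts brought to a common library total by TMM, the trimmed mean of M-values; vertical axis from 0), with palbociclib libraries left of control libraries, their mean and the SD over 3 libraries. FASN, ACLY, ACACA and ACSS2 lie higher in all 3 palbociclib libraries, ACACB and ME1 lie lower, and the ACSS1 groups overlap, with control library 3 the low one among controls.

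Libraries held 59183323 to 76211410 estimated counts with palbociclib and 57082715 to 78117945 in controls. About 4 of these counts stand for a sequenced fragment. Within each group, every pair of libraries differed beyond counting error once the counts were divided by 4 (chi-square per degree of freedom 3.21 to 5.72), so each was kept as a sample. The line's label was checked on luminal prostate markers: all 8 were detected and their summed level was 8406 to 8599 CPM with palbociclib and 5445 to 5484 CPM in controls. Of markers of other cell types, 2 basal genes summed to 2.38 to 4.50 CPM with palbociclib and 0.949 to 2.58 CPM in controls. Likewise 3 fibroblast genes summed to 27.6 to 30.8 CPM with palbociclib and 26.0 to 27.2 CPM in controls, and 5 leukocyte and endothelial genes to 11.1 to 14.4 CPM with palbociclib and 13.6 to 18.8 CPM in controls. Within that last sum CD68 was higher with palbociclib (log2 fold change 1.35) and PTPRC (-1.33) and VWF (-0.99) lower, all called by edgeR. The basal marker KRT14 was also called higher (log2 fold change 1.18, edgeR adjusted p = 0.00919), and KRT5 was too low to be tested. The part of these markers in the results was not tested. The fibroblast marker DCN was at 0 in 2 palbociclib and 2 control libraries. Mitochondrially encoded transcripts took 7.05% to 7.43% of counts with palbociclib and 5.67% to 6.15% in controls, and their part in the results was not tested. In bulk RNA, a change in how many cells use a gene and a change of RNA per cell cannot be told apart. Nothing states that the replicates were separate cultures, so p-values here reflect library-to-library spread that may be only technical.

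The promoters are shown as the sequences at annotated starts of genes that rose and of genes that fell. RefSeq windows on GRCh38.p14, from 250 bases before to 50 after a start site, were found for 6 of the 7 genes, 12 windows in all; FASN had no entry. Each window below is written 5′ to 3′ on the gene's strand, and capitals mark matches on either strand to GGGCGG (the Sp1 box) or CCAAT (the NF-Y box). For ACSS2 and ACACA the window with most matches is shown, for ACLY either of 2 overlapping windows with the same matches, and for ACACB both; ACSS1, which did not pass, is not shown.
ACLY, chr17:41918973-41919272, minus strand: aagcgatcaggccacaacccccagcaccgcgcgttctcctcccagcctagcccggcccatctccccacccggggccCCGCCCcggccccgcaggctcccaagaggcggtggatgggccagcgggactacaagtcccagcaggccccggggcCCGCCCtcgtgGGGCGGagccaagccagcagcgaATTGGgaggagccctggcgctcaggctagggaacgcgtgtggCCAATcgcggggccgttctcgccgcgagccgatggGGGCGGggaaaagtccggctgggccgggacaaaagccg
ACSS2, chr20:34876362-34876661, plus strand: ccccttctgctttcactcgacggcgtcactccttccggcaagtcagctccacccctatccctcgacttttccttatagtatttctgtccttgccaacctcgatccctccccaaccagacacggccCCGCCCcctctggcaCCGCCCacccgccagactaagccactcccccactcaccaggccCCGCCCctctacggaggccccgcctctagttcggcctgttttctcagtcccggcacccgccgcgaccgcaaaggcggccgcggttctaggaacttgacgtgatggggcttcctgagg
ACACA, chr17:37359047-37359346, minus strand: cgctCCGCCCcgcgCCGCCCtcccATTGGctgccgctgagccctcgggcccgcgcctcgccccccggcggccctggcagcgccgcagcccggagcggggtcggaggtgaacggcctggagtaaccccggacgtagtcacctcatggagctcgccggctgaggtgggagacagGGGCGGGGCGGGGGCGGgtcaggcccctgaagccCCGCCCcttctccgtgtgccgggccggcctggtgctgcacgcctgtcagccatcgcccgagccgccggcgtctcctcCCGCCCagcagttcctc
ACACB, upstream start, chr12:109116337-109116636, plus strand: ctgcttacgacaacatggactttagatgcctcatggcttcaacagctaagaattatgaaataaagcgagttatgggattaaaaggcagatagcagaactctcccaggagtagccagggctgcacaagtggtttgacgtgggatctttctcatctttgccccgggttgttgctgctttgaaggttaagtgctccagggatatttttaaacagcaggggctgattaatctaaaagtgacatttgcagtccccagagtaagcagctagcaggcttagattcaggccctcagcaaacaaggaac
ACACB, downstream start, chr12:109154429-109154728, plus strand: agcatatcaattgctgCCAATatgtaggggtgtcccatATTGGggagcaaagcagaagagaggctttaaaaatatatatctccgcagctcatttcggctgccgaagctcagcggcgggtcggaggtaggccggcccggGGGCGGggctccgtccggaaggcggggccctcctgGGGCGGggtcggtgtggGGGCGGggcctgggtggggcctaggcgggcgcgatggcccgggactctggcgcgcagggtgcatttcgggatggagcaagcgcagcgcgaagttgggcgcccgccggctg
ME1, chr6:83431002-83431301, minus strand: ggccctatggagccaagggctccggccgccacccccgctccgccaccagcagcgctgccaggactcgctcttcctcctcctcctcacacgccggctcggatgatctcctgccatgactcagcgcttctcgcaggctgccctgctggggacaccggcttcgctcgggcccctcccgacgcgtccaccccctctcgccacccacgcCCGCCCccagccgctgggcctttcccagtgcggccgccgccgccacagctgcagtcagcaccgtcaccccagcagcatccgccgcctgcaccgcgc

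Among genes that rose, the ACLY window holds 4 Sp1 boxes and 2 NF-Y boxes, the ACSS2 window shown 3 and 0, and the ACACA window shown 7 and 1, some of the ACACA Sp1 boxes overlapping each other. Their windows not shown hold 1 Sp1 and 1 NF-Y box for ACSS2, and for ACACA 0 and 2 in one and 6 and 0 in the other. The windows printed were thus chosen by their matches, and no difference between genes that rose and genes that fell can be read from them. Of genes that fell, ME1 holds 1 Sp1 box and no NF-Y box. The ACACB start upstream holds no match, whereas its downstream start holds 3 Sp1 and 2 NF-Y boxes. The ACSS1 windows hold 0 and 4 Sp1 boxes and no NF-Y box. Sp1 boxes are in 9 of the 12 windows of these genes and in 45.0% of all 35116 windows; NF-Y boxes are in 6 of the 12 and in 34.6% of all. Both counts take in the 2 overlapping ACLY windows, which share their matches. The E-box CACGTG (7.26% of all windows) and the sterol regulatory core TCACNCCAC (1.13%) were searched on both strands too, and these letters are in 0 of the 12. The table counts whole genes, so which start was used in these cells is not known, and a match is a description of the letters only.

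ACLY (ENSG00000131473, chromosome 17, 41866917 to 41930542, minus strand; hg38, as for all positions) is the branch that links glucose and glutamine carbon to lipid. It stood at 660.1, 665.2 and 680.1 CPM in palbociclib libraries 1, 2 and 3, against 405.3, 405.8 and 388.6 CPM in control libraries 1, 2 and 3. All palbociclib libraries lay well above all controls, and the libraries of each group lay close together. The mean was 668.5 ± 10.4 CPM with palbociclib and 399.9 ± 9.79 CPM in controls (SD, n = 3 each). Its log2 fold change was 0.74, with an SE of 0.0349 and an edgeR adjusted p = 1.04e-06, and 8.48% of tested genes had a more positive one.

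ACSS2 (ENSG00000131069, chromosome 20, 34872146 to 34927962, plus strand) recaptures acetate in the cytosol and nucleus, where its product also feeds histone acetylation. Palbociclib libraries 1, 2 and 3 had 64.4, 67.1 and 63.5 CPM, and control libraries 1, 2 and 3 had 53.5, 48.5 and 48.6 CPM. The groups did not overlap, although control library 1 came closer than the other two. The difference was the smallest among the 4 rises, at 0.37 log2 units, with an SE of 0.0539 and an edgeR adjusted p = 0.000681.

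ACSS1 (ENSG00000154930, chromosome 20, 25006230 to 25058182, minus strand) activates acetate inside mitochondria. It had 24, 56 and 55 estimated counts in palbociclib libraries 1, 2 and 3 and 202, 171 and 37 in control libraries 1, 2 and 3. At about 4 counts per fragment these are few fragments, and control library 3 sat within the palbociclib range. The floor of 3 fragments is 12 counts, equal to 0.164 to 0.211 CPM with palbociclib and 0.148 to 0.201 CPM in controls, and covers counting error only. Levels were 0.720 ± 0.344 CPM with palbociclib and 1.98 ± 1.22 CPM in controls (SD, n = 3 each), and the log2 fold change was -1.47, with an SE of 0.589 and an edgeR adjusted p = 0.0805. Without control library 3 the log2 fold change was -1.90 (edgeR adjusted p = 0.00927); against control library 3 alone, a setting chosen after the counts were seen, it was 0.27 (adjusted p = 0.829), over alternatives from 0.00927 to 0.829. The ACSS1 call thus changed with control library 3. It also changed with the test, since DESeq2 on all libraries called it lower (log2 fold change -1.47, DESeq2 adjusted p = 0.0216).

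ACACA (ENSG00000278540, chromosome 17, 37084992 to 37406836, minus strand) encodes the cytosolic carboxylase whose malonyl-CoA feeds synthesis. Its levels were 667.7, 679.1 and 704.0 CPM in palbociclib libraries 1, 2 and 3 and 508.0, 510.5 and 490.9 CPM in control libraries 1, 2 and 3. Every palbociclib library exceeded every control. The log2 fold change was 0.44, with an SE of 0.0362 and an edgeR adjusted p = 2.50e-05.

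ACACB (ENSG00000076555, chromosome 12, 109116587 to 109268226, plus strand) encodes the carboxylase anchored at the outer mitochondrial membrane, whose malonyl-CoA restrains the carnitine palmitoyltransferase CPT1 and so fatty acid oxidation. It was at 18.8, 20.5 and 21.4 CPM in palbociclib libraries 1, 2 and 3, against 32.4, 32.4 and 33.2 CPM in control libraries 1, 2 and 3. The palbociclib libraries were all lower, and the controls were close to each other. The log2 fold change was -0.69, with an SE of 0.0700 and an edgeR adjusted p = 8.51e-05. The carboxylase genes thus moved in opposite directions.

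FASN (ENSG00000169710, chromosome 17, 82078338 to 82098294, minus strand), the multifunctional synthase that releases palmitate, had the highest level and the largest rise of the 7. Palbociclib libraries 1, 2 and 3 held 2571, 2396 and 2332 CPM, and control libraries 1, 2 and 3 held 1224, 1320 and 1171 CPM. The lowest palbociclib library was far above the highest control. Means were 2433 ± 124 CPM with palbociclib and 1239 ± 75.6 CPM in controls (SD, n = 3 each), and the log2 fold change was 0.97, with an SE of 0.0538 and an edgeR adjusted p = 2.71e-06. Of tested genes, 5.26% of tested genes had a more positive one. Ordered by FPKM (the authors' level per exon length and per mapped fragment), FASN ranked 100 to 105 of 35430 genes in palbociclib libraries and 172 to 205 in controls.

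ME1 (ENSG00000065833, chromosome 6, 83210402 to 83431051, minus strand) encodes the cytosolic malic enzyme, which makes pyruvate and NADPH from malate. Its levels were 63.9, 65.3 and 68.2 CPM in palbociclib libraries 1, 2 and 3 and 85.5, 83.9 and 81.2 CPM in control libraries 1, 2 and 3. Groups did not overlap, and palbociclib was the lower. The log2 fold change was -0.34, with an SE of 0.0442 and an edgeR adjusted p = 0.000342. No exon of any of the 7 genes overlaps an exon of another gene of the table in GENCODE 44.

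**Figure D2:**
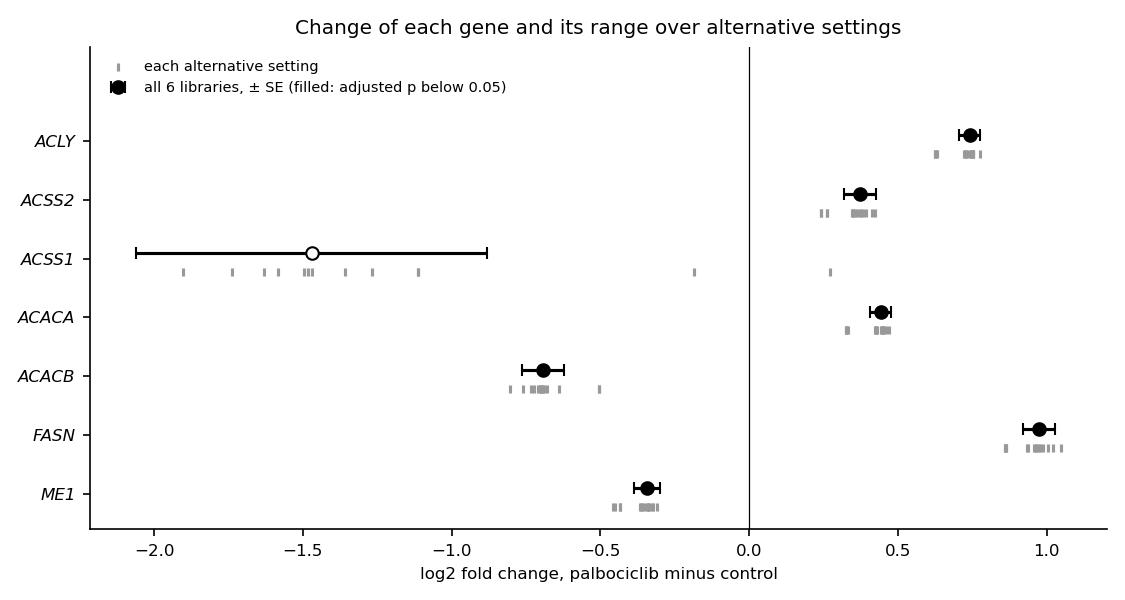
Log2 fold change of each gene, palbociclib minus control (horizontal axis), with all 6 libraries ± SE above and under each alternative setting as grey ticks below; filled points passed. FASN, ACLY, ACACA and ACSS2 stay above 0 and ACACB and ME1 below 0 under every setting drawn, while ACSS1 runs from -1.90 to 0.27.

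Per length, the order of the levels was the same in both groups: FASN, ACLY, ACACA, ME1, ACSS2, ACACB and ACSS1. Mean FPKM ran down this order as 241.9, 119.0, 48.7, 18.3, 11.5, 1.28 and 0.0737 with palbociclib, and as 132.9, 76.8, 38.6, 25.0, 9.55, 2.24 and 0.227 in controls. No neighbours in that order overlapped between libraries of a group. FASN made up 53.4% to 56.7% of the summed FPKM of the 7 with palbociclib and 45.8% to 47.9% in controls, and ACLY 26.0% to 27.8% with palbociclib and 26.4% to 27.2% in controls. The share of ACACA was 10.5% to 11.5% with palbociclib and 13.3% to 13.8% in controls, although its own level was higher. ME1 took 3.94% to 4.35% with palbociclib and 8.50% to 8.94% in controls.

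The balance between enzymes was compared as ratios of FPKM within a library, so that library scaling drops out. ACACB gave 2.45%, 2.62% and 2.64% of the summed carboxylase FPKM in palbociclib libraries 1, 2 and 3, against 5.40%, 5.36% and 5.71% in control libraries 1, 2 and 3. ACACA was thus the main carboxylase transcript throughout, and more so with palbociclib. The difference of -2.92 percentage points gave an exact two-sided permutation p = 0.1, the smallest that 3 against 3 allows, or 0.125 adjusted over 5 such comparisons. FPKM ratios of FASN to ACACA were 5.38, 4.93 and 4.63 with palbociclib and 3.37, 3.61 and 3.33 in controls. Those of FASN to ACLY were 2.18, 2.01 and 1.92 with palbociclib and 1.69, 1.82 and 1.68 in controls. For ACLY to ACSS2 they were 10.3, 10.0 and 10.8 with palbociclib and 7.64, 8.45 and 8.07 in controls. These ratios were picked after the values were seen; groups did not overlap for any of them, each with an exact permutation p = 0.1 and adjusted p = 0.125. ACSS1 gave 0.277%, 0.755% and 0.880% of the summed synthetase FPKM with palbociclib and 2.72%, 3.45% and 0.715% in controls, which overlap (exact permutation p = 0.3, adjusted p = 0.3).

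**Figure D3:**
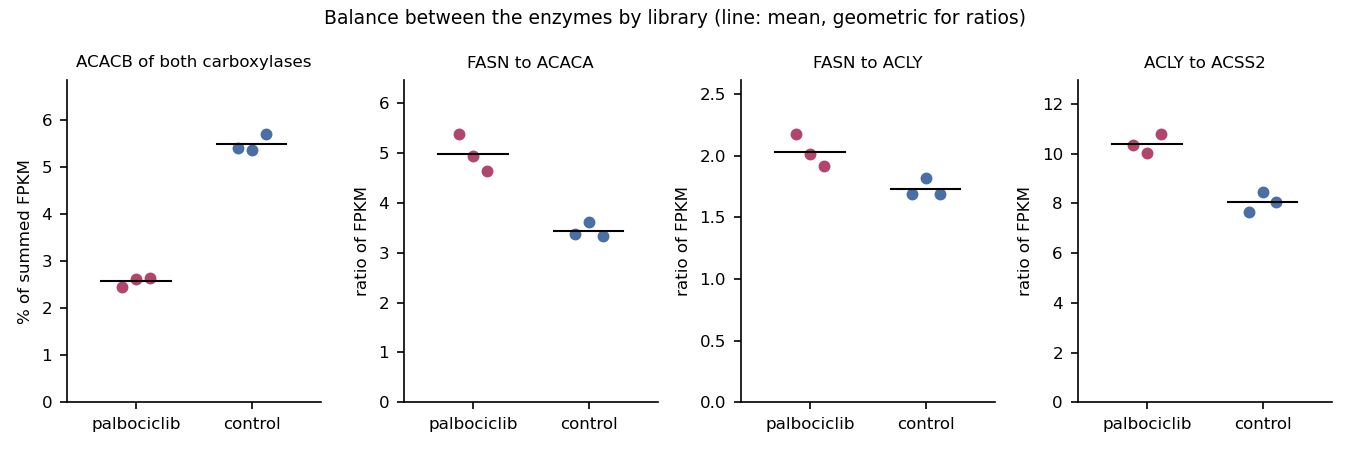
ACACB as a percentage of ACACA plus ACACB, and the FPKM ratios FASN to ACACA, FASN to ACLY and ACLY to ACSS2 (vertical axes from 0) in each library, palbociclib left of control, with group means. ACACB is near 2.6% with palbociclib and 5.5% in controls, and FASN to ACACA averages 4.97 with palbociclib and 3.44 in controls.

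Around the 7 genes, 8 lists with 89 genes in the table were counted, and 87 were tested. Of these, 40 were higher and 16 lower, where 20.1% of all 21218 tested genes were higher and 18.5% lower. The same shares of all tested genes stand beside each list count below. The median log2 fold change was 0.19 for the list genes and -0.03 for all tested genes. With library size alone 34 list genes were higher and 22 lower, so list medians smaller than the shift of -0.11 depend on the scaling. The lists were chosen with earlier results of these data known. Of 13 genes of the transcriptional control of lipogenesis, 4 were higher and 1 lower (median 0.04). INSIG1, which holds SREBPs in the endoplasmic reticulum and is itself an SREBP target, rose by 0.98 on the log2 scale. MLX, the partner of the glucose-sensing factor ChREBP, rose by 0.53. ChREBP's own gene, MLXIPL, was low, at 2.74 CPM with palbociclib and 3.69 CPM in controls. Its log2 fold change was -0.42 and did not pass (edgeR adjusted p = 0.105). SREBF1, which encodes the SREBP of fatty acid synthesis, rose by 0.45 to 286.6 CPM with palbociclib, against 209.2 CPM in controls. SREBF2, which encodes the SREBP of cholesterol synthesis, was at -0.10 and SCAP, the SREBP escort, at -0.0046, and neither passed.

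THRSP and MID1IP1 encode related proteins of the lipogenic programme, the second of which promotes polymerisation of acetyl-CoA carboxylase. THRSP had 98, 59 and 72 estimated counts in palbociclib libraries 1, 2 and 3 and 13, 21 and 22 in control libraries 1, 2 and 3, so that its controls stood just above the floor of 12. Its log2 fold change was 2.03, with an SE of 0.402 and an edgeR adjusted p = 0.00378, and 0.63 on log2(FPKM + 1), a scale that shrinks changes of low genes. MID1IP1, which was far higher, fell by 0.35 to 216.5 CPM with palbociclib, against 275.4 CPM in controls; the log2 fold change was -0.23 without palbociclib library 3, and the call ended without control library 1 (edgeR adjusted p = 0.0594, over alternatives from 0.00468 to 0.145).

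Among 14 genes acting on the enzyme proteins, 4 were higher and 6 lower (median -0.07). AMP-activated protein kinase, which inactivates both carboxylases by phosphorylation, had lower transcripts of its catalytic subunit PRKAA2 (-0.54) and scaffold PRKAB1 (-0.39). The other scaffold, PRKAB2, was at 42.2 CPM with palbociclib and 41.5 CPM in controls (0.03) and did not pass. The activating kinase STK11 was lower (-0.32). Its partner CAB39 passed at 0.17, and CAMKK2, another activating kinase, was at 0.04 and did not pass. The more abundant catalytic subunit PRKAA1 was at 0.11 and did not pass, and the nucleotide-binding subunits PRKAG1 (0.22) and PRKAG2 (0.35) passed. On log2(FPKM + 1) neither did (limma adjusted p = 0.201 and 0.139); over alternatives PRKAG1 ran from 0.00181 to 0.308 and PRKAG2 from 0.000961 to 0.226, and PRKAG1 was also lost with library size alone (0.172) and without control library 2 (0.0583). TRIB3, which in mouse fat tissue brings the ubiquitin ligase COP1 to acetyl-CoA carboxylase, stood at 49.8, 44.4 and 48.9 CPM with palbociclib and at 519.0, 503.6 and 476.2 CPM in controls, a log2 fold change of -3.39. COP1 was at 0.21 and passed, but not with library size alone (adjusted p = 0.180, over alternatives from 0.0122 to 0.198).

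Genes of citrate and acetate supply were higher in 8 of 12 and lower in 1 (median 0.29). The mitochondrial pyruvate carrier subunit MPC2 rose by 0.72, citrate synthase CS by 0.35 and the cytosolic aconitase ACO1 by 0.60. SLC25A1, the citrate exporter that supplies ACLY, was at 0.19 and did not pass (edgeR adjusted p = 0.0688). SLC16A1, a carrier of lactate, pyruvate and other monocarboxylates, fell by 0.31. Of 9 tested NADPH genes other than ME1, 6 were higher and 1 lower (median 0.30). Among them the cytosolic isocitrate dehydrogenase IDH1 rose by 0.45 and the NAD kinase NADK by 0.42, while the mitochondrial kinase NADK2 fell by 0.78. ME2, the mitochondrial malic enzyme, rose by 0.37, opposite to ME1, and ME3 was too low to be tested.

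**Figure D4:**
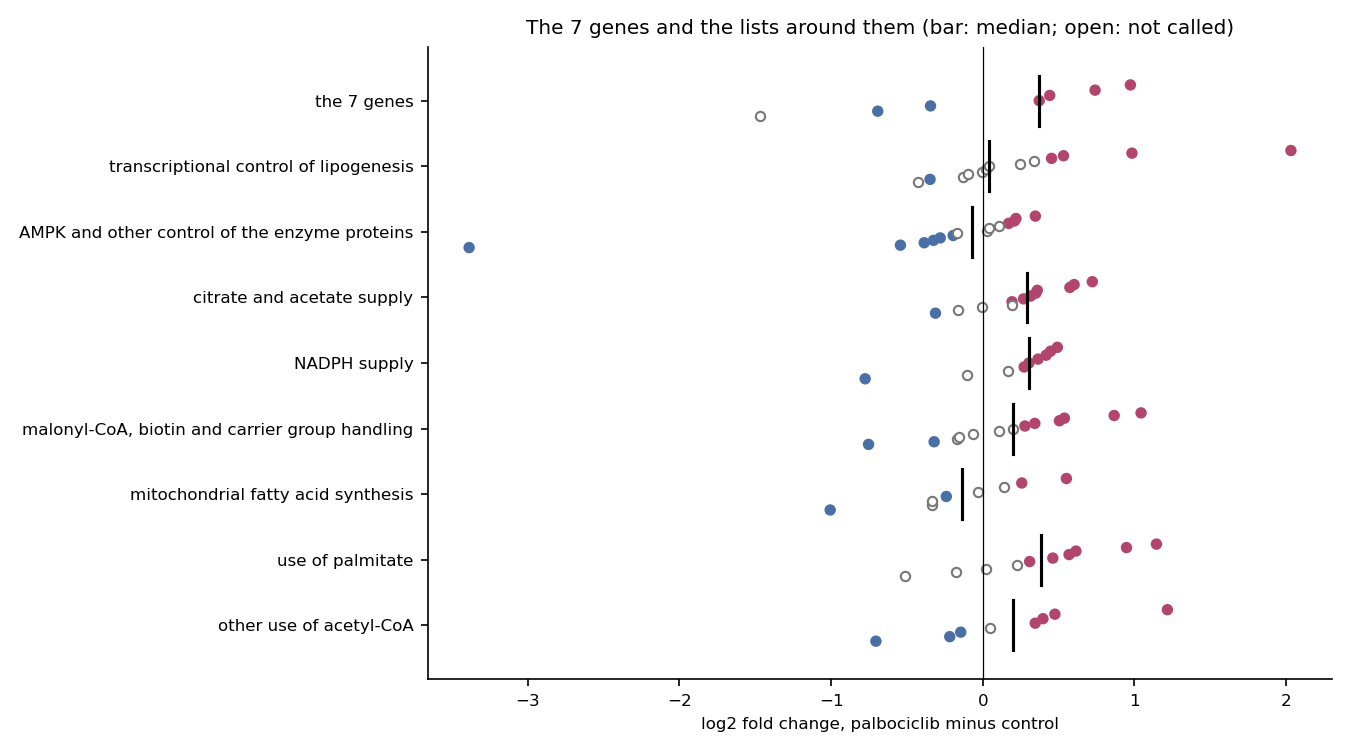
Log2 fold change, palbociclib minus control (horizontal axis), of each tested gene in the 7 and in 8 lists around them; red was called higher, blue lower, open circles were not called, and bars are medians. TRIB3 stands at the far left at -3.39 and THRSP at the far right at 2.03.

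Both carboxylases need biotin, and of 13 genes handling malonyl-CoA, biotin and the carrier group 6 were higher and 2 lower (median 0.20). SLC5A6, the sodium-dependent vitamin transporter that imports biotin, stood at 87.5, 86.4 and 83.1 CPM with palbociclib and at 43.9, 44.4 and 36.3 CPM in controls (log2 fold change 1.04). BTD, which recycles biotin, rose by 0.87, whereas HLCS, the ligase that attaches biotin to the carboxylases, fell by 0.75 to 52.0 CPM with palbociclib, against 87.7 CPM in controls. Among genes for subunits of the mitochondrial biotin enzymes, MCCC1 (0.54), MCCC2 (0.34) and PCCB (0.51) rose and PCCA (-0.32) fell. PC was at 0.20 and did not pass (edgeR adjusted p = 0.0601). CPT1A, the main target of malonyl-CoA outside muscle, was at 0.11 (edgeR adjusted p = 0.0593), and AASDHPPT, which arms fatty acid synthase with its carrier group, at -0.17 (adjusted p = 0.0705).

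Of 10 tested genes that use palmitate, 6 were higher and 0 lower (median 0.39). The desaturase SCD rose by 0.95, the acyl-CoA synthetases ACSL3 by 1.15 and ACSL1 by 0.31, and LPIN1, a phosphatidate phosphatase, by 0.61. ELOVL6, which extends palmitate, was at -0.18 and did not pass (edgeR adjusted p = 0.305). Among 8 tested genes of other acetyl-CoA use, 4 were higher and 3 lower (median 0.20): HMGCS1, at the entry to cholesterol synthesis, rose by 1.22, the thiolase ACAT1 by 0.40 and the histone acetyltransferase KAT2A by 0.48, while the acetyltransferase CREBBP fell by 0.70.

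The separate mitochondrial pathway of fatty acid synthesis, which makes the precursor of lipoic acid, showed 2 higher, 2 lower and 4 not called of 8 (median -0.13). MCAT, its malonyl transferase, rose by 0.55 and OXSM, its condensing enzyme, by 0.26. HSD17B8, a reductase subunit, fell by 1.01 and ACSF3, which makes the pathway's malonyl-CoA, by 0.24. HSD17B8 stood at 20.6, 18.2 and 10.9 CPM in palbociclib libraries 1, 2 and 3. Without palbociclib library 3 its log2 fold change was -0.78 (edgeR adjusted p = 0.000536). The ACSF3 call ended without palbociclib library 3 (edgeR adjusted p = 0.0565), without control library 1 (0.0729) and without control library 2 (0.0641), over alternatives from 0.00305 to 0.287. With library size alone OXSM was at 0.15 (adjusted p = 0.0509), over alternatives from 0.00142 to 0.109.

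Genes of nearest pattern were sought over the 6 libraries among 11293 genes of at least 5 CPM, by Euclidean distance of log2 CPM centred on the control mean; with 2 groups, such likeness rests largely on an equal fold change. Nearest to ACLY were TMBIM1 (distance 0.0267) and USP54 (0.0414), and nearest to ACACA were ADH5 (0.0313) and ST3GAL1 (0.0336). PCYOX1 (0.107) and TUBB4B (0.121) came closest to FASN, and ME2 (0.0563) and ZNF652 (0.0671) to ACSS2. Among genes that fell, ACACB lay closest to TUBGCP3 (0.0922) and RBM3 (0.0972), and ME1 to SMAD4 (0.0363) and DOCK1 (0.0514). ACSS1 had no near neighbour, the closest of its 11294 candidates being IGFN1 at 0.718. None of the 7 was among the 2 nearest genes of another.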

How the data were processed

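Polyadenylated RNA of 6 LNCaP libraries was sequenced. The submitters' processing notes name cutadapt 1.9 for trimming (the series' design text names fastp); reads were, per those notes, aligned to hg38 with HISAT2 2.0.4 and quantified with StringTie 1.3.4d. The authors deposited estimated counts, already whole numbers, so rounding changed none, and FPKM per gene. The annotation release and strandedness are not given in the sources used here. Counts of 4, 8 and 12 are in excess, so the deposited counts hold about 4 per fragment; totals are in the report. No column was left without a sample.

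Groups follow the treatment label. With edgeR 4.0.16, genes were kept by filterByExpr (minimum count 10, total 15), leaving 21218 of 35430, scaled by TMM, and tested with glmQLFTest; p-values were adjusted by Benjamini-Hochberg over all tested genes. The SE of a log2 fold change is its size over the square root of F. Alternatives were DESeq2 1.42.0, limma 3.58.1 on log2(FPKM + 1) and log2(FPKM + 0.1), library size alone, no filter, counts divided by 4, a replicate block and leaving out each library. On simulated counts the fit recovered 57.4% of genes changed 1.5-fold, 83.3% of those changed 2-fold and 95.5% of those changed 4-fold. The simulated counts had the same dispersion for every gene, and 68, 66 and 66 of 21218 genes were changed at these folds. They did not carry the roughly 4 counts per fragment of the deposited data. The recovered shares are therefore not those of the fit to the deposited data. Ratios used exact permutation tests (scipy 1.17.1). Named genes were the 7, up to 4 per list by lowest adjusted p, other list members as values, and the 2 of nearest pattern for each of the 7. The members, lists and tests were chosen with earlier results of these data known. ACOT12, TP63 and COL1A2 were listed but not analysed here, and 1 gene that the rule names is counted in its list but not reported here. Promoter windows are those of RefSeq on GRCh38.p14; protein sequences were not used here.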

Additional observations from a re-analysis of the deposited data

How the results depend on the processing

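The 6 genes called, FASN, ACLY, ACACA, ACSS2, ACACB and ME1, kept direction and call under all 15 alternatives run for each, with log2 fold changes of 0.86 to 1.05, 0.63 to 0.78, 0.33 to 0.47, 0.24 to 0.42, -0.80 to -0.51 and -0.46 to -0.31. ACSS1 passed with DESeq2 (-1.47, adjusted p = 0.0216), turned to 0.27 against control library 3 alone (adjusted p = 0.829), and ran from -1.90 to -1.11 when each library was left out (edgeR adjusted p from 0.00927 to 0.242). With a filter on low FPKM it gave no value. Over all genes, 2687 were higher on log2(FPKM + 1) with no filter, against 4270 by edgeR. Against control library 3 alone, an alternative added after the data were seen, 2182 genes were lower, against 3921, and 10 list genes were lower, against 16. Library size alone moved the median log2 fold change of all genes by -0.11 and made 36.1% of calls higher, against 52.1% with TMM; log2(FPKM + 1) made it 37.7%. Of 585 values for 39 other genes of the lists, 563 kept their call, 22 lost it and 0 reversed. HSD17B8 was at -0.88 (adjusted p = 0.0962) and OXSM at 0.21 (0.109), PRKAG1 at 0.23 (0.113), MID1IP1 at -0.37 (0.145) and ACSF3 at -0.18 (0.287) against control library 3 alone. Equal replicate numbers did not pair the libraries (correlations of deviations -0.01, -0.03 and -0.03); with the replicate block FASN stayed called, as did the other 5, and 3855 genes were higher and 3438 lower. The ACACB share difference ran from -2.98 to -2.81 points and the ACSS1 share difference from -2.45 to -1.08 when each library was left out. The cause of these dependences was not tested. ME3 had too few counts to be tested, and THRSP had 13 to 22 counts in controls, where the floor is 12.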
